A study of Mus musculus with 14 samples.

Results

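The serotonin (5-hydroxytryptamine, 5HT) receptor, transport and metabolism genes of the mouse aortic valve (AV) were described across treatments. The group was chosen by name and not by level or change. It held 10 of the 56941 genes counted, comprising the receptors Htr2a, Htr2b, Htr1b and Htr7, the synthesis enzymes Tph1 and Ddc, the transporters Slc6a4 and Slc18a2, and the oxidases Maoa and Maob. All 10 passed the minimum mean count of 10 and were tested. Bulk RNA-seq was performed on AV leaflets of 14 male wild type C57BL/6J mice, which were 8 weeks old at the start and were all fed a Western diet. The 4 Ctrl mice were untreated. The 4 AngII mice received angiotensin II at 1000 ng/kg/min from subcutaneous osmotic pumps for 28 days. The 4 AngII+LY mice received the same infusion with injections of LY272015, an antagonist of the receptor HTR2B, at 3 mg/kg, and the 2 LY mice received LY272015 without AngII. According to the series description, pumps were removed 48 hours before collection in both AngII groups, whereas the study's text describes removal in a subset of those mice, and which of the sequenced mice this covers is not given in the sources used here. The labels of LY 2 and AngII+LY 2 to 4 give consecutive numbers in place of LY272015, which was taken as the compound throughout. The injections are given as every other day in the sample descriptions and as 2 per week in the series description. Whole leaflets were sequenced, so each value is an average over interstitial, endothelial, blood and adherent muscle cells.

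5HT is made from tryptophan in a pair of steps. Tryptophan hydroxylase (TPH1 outside the nervous system) adds a hydroxyl group and aromatic amino acid decarboxylase (DDC) removes the carboxyl group. Most circulating 5HT is carried by platelets, which take it up through the transporter SERT (Slc6a4) and load it into granules through VMAT2 (Slc18a2). 5HT that enters other cells is oxidized by the monoamine oxidases MAOA and MAOB on the mitochondrial outer membrane. HTR2A and HTR2B couple to Gq, HTR1B to Gi and HTR7 to Gs. Agonists of HTR2B, including metabolites of some appetite suppressants, are known for causing fibrotic thickening of heart valves.

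Counts summed from 20990655 in AngII 4 to 73128220 in AngII 2, and no other library had under 41610931. Counts of low genes were therefore coarsest in AngII 4. Interstitial markers were all counted in all 14 libraries, which at this depth does not show how much of each library was leaflet. The 10 interstitial markers summed to 618000 to 698000 normalized counts in AngII but 219700 to 392500 in AngII+LY mice, which did not overlap. Ctrl mice spanned 369600 to 743700 and LY mice 459200 to 811500. The 9 cardiomyocyte markers went the other way, from 374700 to 939200 in AngII against 971000 to 2542000 in AngII+LY mice, again without overlap. A normalized count here is the count divided by the library's TMM effective size relative to the mean over the libraries. Several libraries stood apart in their levels of cell type markers. AngII 4 was highest in platelet markers, Ctrl 1 in smooth muscle markers, and Ctrl 2 and AngII+LY 4 in the atrial gene Myl7, with 208600 and 155900 normalized counts against at most 35810 in any other mouse. Where a member moved with these libraries, values with and without them are given.

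Differences were tested over all genes with edgeR's quasi-likelihood method, and a call needed a Benjamini-Hochberg adjusted p below 0.05 and an absolute log2 fold change above 0.5. No member was called in any comparison, and neither was any other gene (0% of the 19145 tested). The smallest adjusted p of any gene was 0.0573 for AngII against Ctrl and 0.0568 for AngII+LY against AngII. At an unadjusted p under 0.05 there were 4 members for AngII against Ctrl (Slc18a2, Maoa, Slc6a4 and Tph1), against 25.2% of all genes. There were 4 for AngII+LY against AngII (Slc18a2, Maoa, Tph1 and Ddc), against 22.5% of all genes. AngII+LY against Ctrl gave 1 member, Ddc, against 11.0%. LY against Ctrl gave 2 members, Slc18a2 and Htr1b, against 1.39%. The interaction, which asks whether the difference made by LY272015 with AngII equalled that without it, gave 5 members, Slc18a2, Maoa, Slc6a4, Tph1 and Htr1b, against 13.3%. The members did not move in 1 direction. For AngII against Ctrl, 5 of the 10 had higher and 5 had lower means, and the median log2 fold change was 0.10 beside -0.06 over all genes. The split was again 5 and 5 for AngII+LY against AngII, with a median of 0.23 beside -0.02. DESeq2's Wald test at the same thresholds called 2 members for AngII against Ctrl, Slc18a2 and Maoa, where it called 13.9% of all genes. It called 3 for AngII+LY against AngII, namely Slc18a2, Maoa and Ddc, where it called 10.9%. For the interaction it called 1, Slc18a2, where it called 1.06%. A newer version of edgeR's method, added after seeing the data, called Slc18a2 for AngII+LY against AngII, along with 0.919% of all genes.

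**Figure D1:**
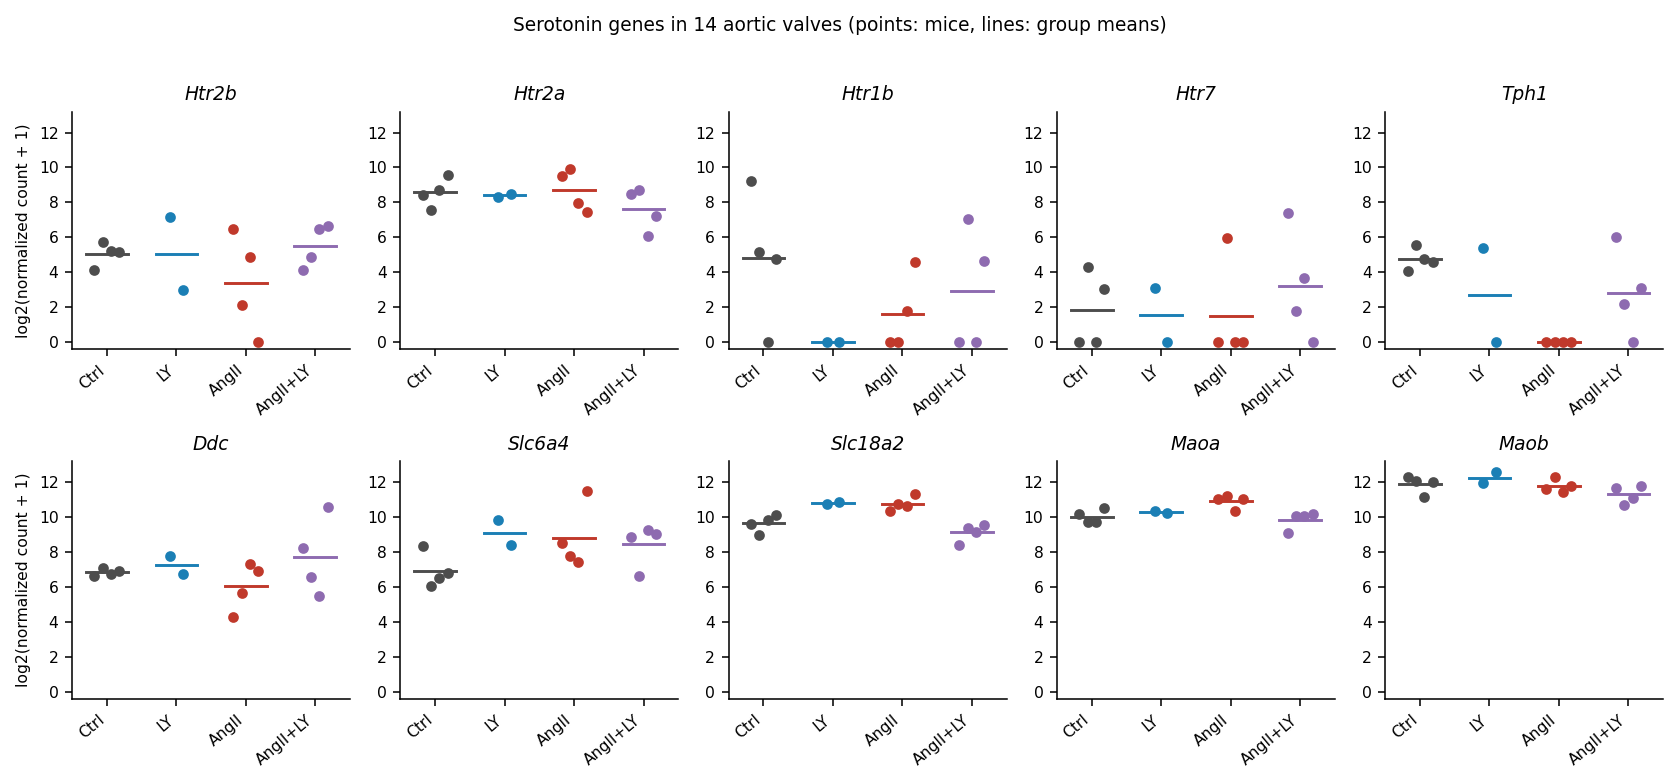
Normalized counts of the 10 serotonin genes in each mouse, as log2(normalized count + 1), with points for mice and lines for group means of that value. Slc18a2, Maoa and Maob were counted well above 0 in all 14 mice, whereas Htr1b, Htr7 and Tph1 were at 0 in several mice, Tph1 in all 4 AngII mice.

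**Figure D2:**
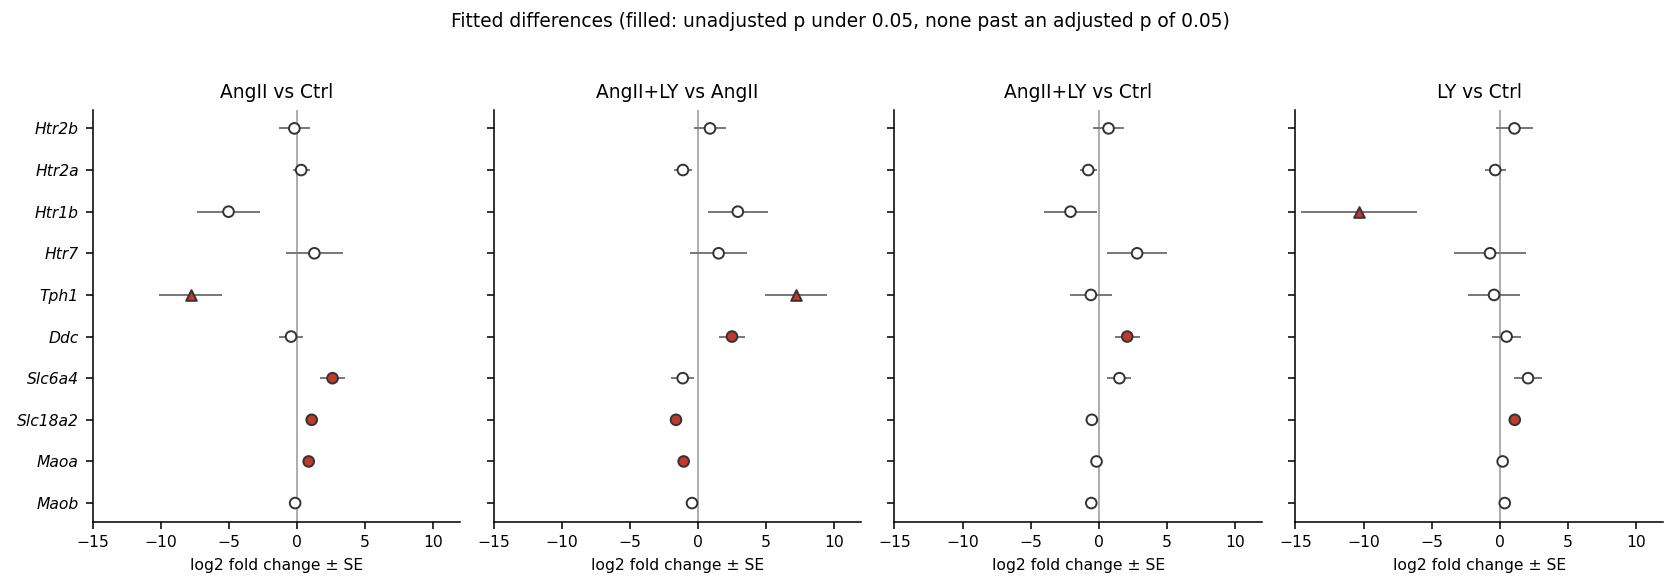
Log2 fold changes of the 10 serotonin genes in edgeR's fit with their standard errors, in 4 comparisons. Filled points had an unadjusted p under 0.05, and triangles mark a comparison with a group at 0 in every mouse, whose estimate depends on the prior count. Slc18a2 and Maoa lay on opposite sides of 0 for AngII against Ctrl and AngII+LY against AngII.

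In Ctrl valves the oxidases and VMAT2 were the most abundant members and the receptors, other than Htr2a, were rare. Levels were compared as normalized counts per kb of exon. Maob stood at 1096 ± 322 (SD, n = 4) and Maoa at 247.8 ± 65.9, and no Ctrl mouse overlapped between them. Slc18a2 followed at 149.8 ± 46.5, Htr2a at 64.6 ± 36.3, Htr1b at 34.7 ± 60.8, Slc6a4 at 27.9 ± 22.5, Htr2b at 15.6 ± 6.5 and Ddc at 11.2 ± 1.6. Tph1 at 4.46 ± 2.13 and Htr7 at 1.60 ± 2.17 were lowest. Ddc and Tph1 did not overlap either, while all other neighbours in this order overlapped. The place of Htr1b rested on Ctrl 1, without which its mean was 4.32 ± 3.85 per kb (SD, n = 3), near that of Tph1.

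**Figure D3:**
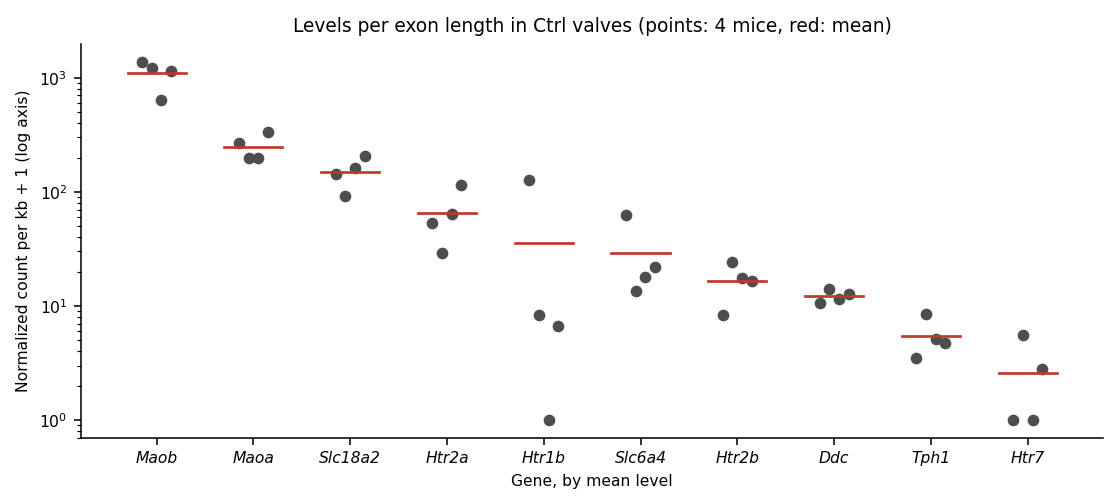
Normalized counts per kb of exon in the 4 Ctrl mice, plus 1 on a log axis, with points for mice and red lines for means. Maob at 1096 per kb stood above every other gene, and the 4 receptors spanned from Htr2a at 64.6 to Htr7 at 1.60 per kb.

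Among the receptors, HTR2B is the target of LY272015. Htr2b (ENSMUSG00000026228, GRCm39, chromosome 1 from 86026748 to 86039736, minus strand) had 16.5, 51.7, 36.7 and 34.5 normalized counts in the Ctrl mice. The AngII mice had 88.9, 3.41, 28.8 and 0. The AngII+LY mice had 16.5, 28.4, 86.4 and 97.7, and the LY mice 140.4 and 7.0. The widest spread was thus within the AngII and LY groups, and every pair of groups overlapped. In log2 terms the difference was -0.18 for AngII against Ctrl (standard error, SE, 1.15, edgeR adjusted p = 0.943) and 0.90 for AngII+LY against AngII (SE 1.16, edgeR adjusted p = 0.697). At these SEs a change of the size seen in Slc18a2 was not detectable for Htr2b. The value for AngII against Ctrl ranged from -1.63 to 0.21 with 1 mouse left out at a time. Across the 14 mice Pearson's r of Htr2b with the cardiomyocyte marker mean was 0.575 on the log2 scale (permutation p = 0.0318, adjusted p = 0.298 over 100 relations of members to marker lists). Spearman's rho was 0.66 (permutation p = 0.0128, adjusted p = 0.205), and the r was 0.50 within groups. The part of cardiomyocytes in the Htr2b differences was not tested. The whole of Htr2b lies inside Psmd1, a proteasome subunit gene on the opposite strand, and 252 of its 2234 exon bases (11.3%) overlap Psmd1 exons. Whether reads were counted by strand is not given in the sources used here. The Htr2b count was at most 2.26% of the Psmd1 count in a library, and the part of Psmd1 reads in it was not tested.

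Htr2a (ENSMUSG00000034997, chromosome 14 from 74877344 to 74946934), the Gq-coupled receptor of platelets and vascular smooth muscle, had the highest mean per kb of the receptors in every group and was counted in all 14 mice. Single mice went against that order, since Htr1b was higher per kb in Ctrl 1, and Htr2b in LY 1, AngII+LY 3 and AngII+LY 4. The Ctrl mice had 347.9, 186.6, 417.1 and 756.4 normalized counts and the AngII mice 729.9, 965.1, 252.4 and 175.4. The AngII+LY mice had 362.5, 421.4, 66.2 and 148.5, and the LY mice 313.8 and 363.1. The AngII mice fell into a high and a low pair, and the groups overlapped in every comparison. The log2 fold change was 0.32 for AngII against Ctrl (SE 0.62, edgeR adjusted p = 0.79) and -1.09 for AngII+LY against AngII (SE 0.63, edgeR adjusted p = 0.323). The first of these was -0.08 after a correction for GC content.

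Htr1b (ENSMUSG00000049511, chromosome 9 from 81510344 to 81515902), the Gi-coupled receptor that mediates constriction of some arteries, was counted in 7 of 14 mice. The Ctrl mice had 596.9, 34.99, 0 and 26.6 normalized counts. It was at 0 in both LY mice, at 0, 0, 2.40 and 23.2 in the AngII mice and at 0, 131.4, 0 and 24.0 in the AngII+LY mice. Ctrl 1 alone thus held most of the counts. The Ctrl mean was 134-fold a floor of 3 counts over the LY group, a ratio that does not allow for the spread between mice. Ctrl 3 was at 0 as well and the groups overlapped (edgeR adjusted p = 1). Without Ctrl 1 the ratio to the floor was 16.7-fold. The unadjusted p of Htr1b for LY against Ctrl passed 0.05 with all mice and not without Ctrl 1. For AngII against Ctrl the log2 fold change was -5.02 (SE 2.33, edgeR adjusted p = 0.2) and -1.87 without Ctrl 1. Ctrl 1 was also the mouse with the most smooth muscle transcripts, 462200 summed normalized counts of 7 markers against 23110 to 213000 in the other 13. The marker Des alone made up 129100 of the 213000 in AngII+LY 4 and 36980 of the 48620 in Ctrl 3, but 17980 in Ctrl 1. Across the 14 mice Htr1b followed the mean of the 7 markers on the log2 scale (Pearson's r = 0.81, permutation p = 0.00094, adjusted p = 0.047 over 100 relations of members to marker lists). The rank correlation was lower (Spearman's rho = 0.59, permutation p = 0.0294, adjusted p = 0.294). The r was 0.67 without the 2 mice farthest from the median and 0.76 within groups. With 7 mice at 0, the relation rested on the others. The part of smooth muscle in the Htr1b differences was not tested. Exons of D430036J16Rik, a long noncoding RNA gene on the opposite strand, overlap 897 of the 4745 exon bases of Htr1b (18.9%). The part of its reads in the Htr1b counts was not tested.

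Htr7 (ENSMUSG00000024798, chromosome 19 from 35935818 to 36035177), a Gs-coupled receptor, was also counted in 7 of 14 mice. AngII+LY 1 reached 170.3 normalized counts and AngII 2 reached 61.3, and every other mouse was at or below 18.3. No comparison had an unadjusted p under 0.05. AngII against Ctrl gave a log2 fold change of 1.29 (SE 2.10). It rested on AngII 2, as the other 3 AngII mice were at 0. The other 10 receptor genes looked for were at or near 0. Htr1a, Htr1d, Htr3a, Htr5a and Htr5b had no count in any library. Htr1f and Htr2c had 1 count, Htr4 had 4 and Htr3b 10, each in a single library. Htr6 reached 12 counts and was seen in 4 libraries. None of these passed the minimum mean count.

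Both synthesis genes were rare. Tph1 (ENSMUSG00000040046, chromosome 7 from 46294065 to 46321965), the rate-limiting enzyme, had 18, 56, 24 and 32 counts in the Ctrl mice. It had no count in any of the 4 AngII mice. The LY mice had 54 and 0 counts and the AngII+LY mice 46, 3, 0 and 8. Every AngII mouse thus lay below every Ctrl mouse, a separation in that direction seen for 7.56% of all genes, whereas AngII+LY and LY mice overlapped with both. The Ctrl mean of 27.8 ± 13.3 normalized counts (SD, n = 4) was 33.1-fold a floor of 3 counts over the AngII group (edgeR adjusted p = 0.0845 for AngII against Ctrl). The AngII+LY mean of 18.6 ± 29.9 was 22.1-fold the same floor (edgeR adjusted p = 0.108 for AngII+LY against AngII), and AngII+LY 1 held 46 of the 57 counts in that group. Without that mouse the ratio to the floor was 4.45-fold. These ratios do not allow for the spread between mice. In whole leaflets, fewer cells that express a gene and less of its RNA per cell cannot be told apart. Mast cells are a known site of Tph1 expression in mice. The 8 mast cell markers summed to 1365 to 2917 normalized counts in Ctrl and 1625 to 2167 in AngII mice, with 4 higher and 4 lower in AngII and 1 of the 8 at an unadjusted p under 0.05, in the lower direction. Lower means in AngII than in Ctrl mice were seen for 4 protease genes. These were Tpsb2 at 152.1 against 444.8 normalized counts, Mcpt4 at 162.9 against 305.6, Cma1 at 325.0 against 470.1 and Tpsab1 at 9.94 against 20.5. Higher means were seen for the protease gene Cpa3 at 282.0 against 219.9, Hdc at 816.2 against 649.4, Ms4a2 at 60.9 against 13.6 and Fcer1a at 10.7 against 9.33. Adipocyte markers, like Tph1, were lower in AngII than in Ctrl mice. All 7 had lower means in AngII than in Ctrl, 5 of them at an unadjusted p under 0.05, with a median log2 fold change of -1.60. For AngII+LY against AngII 4 were higher and 3 lower, with a median of 0.03, and against Ctrl the AngII+LY median was -1.57. They summed to 44740 to 57640 normalized counts in Ctrl mice, against 20120 to 47520 with AngII and 45360 to 67970 when LY272015 was added. Most of each sum was Fabp4, with means of 40590 in Ctrl, 30290 in AngII and 52060 in AngII+LY mice. Across the 14 mice Pearson's r of Tph1 with the adipocyte marker mean was 0.68 on the log2 scale (permutation p = 0.0111, adjusted p = 0.298 over 100 relations) and Spearman's rho was 0.70 (permutation p = 0.00775, adjusted p = 0.155). The r was 0.71 without the 2 mice farthest from the median and 0.54 within groups. With the mast cell marker mean, Pearson's r of Tph1 was 0.45 (permutation p = 0.108, adjusted p = 0.436) and Spearman's rho 0.55 (permutation p = 0.0471, adjusted p = 0.32). This r was 0.53 without the 2 mice farthest from the median and 0.61 within groups. The part of mast cells and of adipocytes in the Tph1 differences was not tested. Tph2, the neuronal hydroxylase, had 61 counts in all, in 5 libraries.

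Ddc (ENSMUSG00000020182, chromosome 11 from 11762602 to 11848150), which also makes dopamine, was counted in all mice. It was even in Ctrl mice at 98.0, 135.0, 108.0 and 121.3 normalized counts. AngII mice had 18.6, 49.7, 157.4 and 122.4, AngII+LY mice 306.2, 93.5, 43.2 and 1523, and LY mice 220.2 and 106.7. AngII+LY 4 thus stood far above every other mouse, and the groups overlapped. AngII+LY against AngII gave a log2 fold change of 2.51 (SE 0.92, edgeR adjusted p = 0.135), and without AngII+LY 4 it was 0.77 (edgeR adjusted p = 0.61). Against Ctrl it was 2.09 (edgeR adjusted p = 0.411), and 0.35 without AngII+LY 4. In the same mouse the natriuretic peptide gene Nppa stood at 141600 normalized counts, against 1242 to 21710 in the other 13, and Dbh, which encodes the enzyme that turns dopamine into noradrenaline, at 1497 against 68.8 to 708.1. Ctrl 2, the other mouse with high Myl7, had 135.0 normalized counts of Ddc. The part of atrial or nerve tissue in the Ddc values was not tested. Of the 10308 exon bases of Ddc, 3841 (37.3%) lie within 1700042O10Rik, a long noncoding RNA gene on the opposite strand, 421 of them in its exons. The part of its reads in the Ddc counts was not tested.

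SERT is the transporter that clears 5HT from the extracellular space. Slc6a4 (ENSMUSG00000020838, chromosome 11 from 76888903 to 76923169) had 324.5, 66.7, 89.7 and 110.5 normalized counts in the Ctrl mice. The AngII mice had 362.9, 218.0, 169.4 and 2918. The AngII+LY mice had 461.3, 98.3, 614.8 and 516.3, and the LY mice 907.6 and 338.6. AngII 4, the shallowest library, was higher than any other mouse, and Ctrl 1 overlapped the AngII mice. For AngII against Ctrl the log2 fold change was 2.62 (SE 0.91, edgeR adjusted p = 0.105), with higher means in AngII, and 0.76 without AngII 4 (edgeR adjusted p = 0.588). For AngII+LY against AngII it was -1.11 (SE 0.86, edgeR adjusted p = 0.483) and 0.76 without AngII 4, so its sign rested on that mouse. Both LY mice lay above every Ctrl mouse, a separation in that direction seen for 5.64% of all genes (log2 fold change 2.08, SE 1.01, edgeR adjusted p = 1). This was 1.20 without LY 1 and 2.81 without Ctrl 1. DESeq2 gave Slc6a4 no p-value because of outlying counts.

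Slc6a4 followed the transcripts of platelets, which carry SERT. The 8 platelet markers (Pf4, Ppbp, Itga2b, Gp9, Gp1ba, Gp1bb, Gp6 and Gp5) summed to 213500 normalized counts in AngII 4, 61480 in LY 1 and 36980 in Ctrl 1, the mice with the most Slc6a4 in their groups. The lowest sum was 11950 in Ctrl, 18160 in AngII and 23640 in AngII+LY mice. In AngII+LY the highest sum was in AngII+LY 4, at 42410, whereas AngII+LY 3 had the most Slc6a4 at a sum of 31910. All 8 markers had higher means in AngII than in Ctrl, 5 of them at an unadjusted p under 0.05, with a median log2 fold change of 2.11. Like Slc6a4, this rested on AngII 4, without which 0 of the 8 had an unadjusted p under 0.05 in edgeR and the median was 0.21. For AngII+LY against AngII the median was -1.32, and 0.13 without AngII 4. All 8 were also higher in LY than in Ctrl, with 0 at an unadjusted p under 0.05 in edgeR and a median of 1.05, which was -0.29 without LY 1. Across the 14 mice Pearson's r of Slc6a4 with the marker mean was 0.91 on the log2 scale (permutation p = 4e-05, adjusted p = 0.004 over 100 relations) and Spearman's rho was 0.86 (permutation p = 0.00019, adjusted p = 0.019). The r was 0.82 without the 2 mice farthest from the median and 0.91 within groups. The 3 genes with the pattern most like Slc6a4, out of 13619 genes whose mean count was 100 or more, were Alox12 (r = 0.93, n = 14), Tubb1 (r = 0.92) and Mpig6b (r = 0.91), the platelet lipoxygenase, the platelet tubulin and a receptor of megakaryocytes and platelets. Whether the SERT differences lay in leaflet cells or in retained platelets was not tested.

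**Figure D4:**
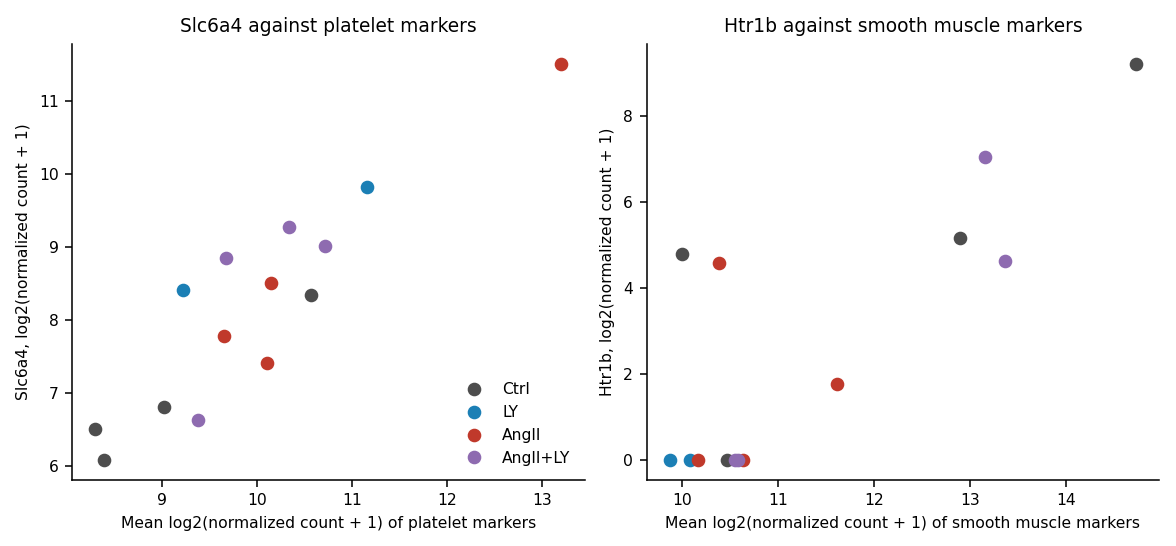
Left, Slc6a4 against the mean of 8 platelet markers, and right, Htr1b against the mean of 7 smooth muscle markers, each as log2(normalized count + 1) with 1 point per mouse coloured by group. Mice with higher platelet markers had more Slc6a4, with AngII 4 at the top (r = 0.91), while 7 mice had no Htr1b at all and Ctrl 1 lay at the upper right.

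VMAT2 loads monoamines into vesicles, and Slc18a2 (ENSMUSG00000025094, chromosome 19 from 59249238 to 59284695) gave the smallest p of the members in 4 of the 5 tests. The Ctrl mice had 785.2, 511.5, 904.3 and 1133 normalized counts. The AngII mice had 1296, 1702, 1573 and 2548. The AngII+LY mice had 344.6, 668.8, 561.5 and 765.3, and the LY mice 1705 and 1870. Every AngII mouse lay above every Ctrl mouse and above every AngII+LY mouse, and both LY mice lay above every Ctrl mouse. Such a separation was seen for 7.46% of genes for AngII above Ctrl, 5.66% for AngII+LY below AngII and 5.64% for LY above Ctrl. The log2 fold change of AngII against Ctrl was 1.09 (SE 0.30, edgeR adjusted p = 0.0632), from 0.87 to 1.28 with 1 mouse left out at a time. That of AngII+LY against AngII was -1.60 (SE 0.30, edgeR adjusted p = 0.0575), from -1.76 to -1.38 likewise. DESeq2's adjusted p-values were 0.00667 and 0.000176.

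In means, Slc18a2 was higher with LY272015 than without it where no AngII was given, and lower where AngII was given. LY against Ctrl gave a log2 fold change of 1.10 (SE 0.35, edgeR adjusted p = 1), about the size of that of AngII alone. The interaction was -2.70 (SE 0.46, edgeR adjusted p = 0.295), between -2.89 and -2.48 with 1 mouse left out at a time, with DESeq2's adjusted p at 0.000431. Only 2 LY mice entered it. Slc18a2 overlaps Pdzd8, a lipid-transfer protein gene on the opposite strand, over 2770 of its 5566 exon bases (49.8%), of which 475 lie in Pdzd8 exons. Pdzd8 ranged from 2197 to 4845 normalized counts with AngII, against 1427 to 2037 for Ctrl and 1057 to 2105 for AngII+LY, so it also separated AngII from both. The LY mice had 2082 and 2344. The correlation between the 2 genes was 0.65 over the 14 mice (Spearman's rho 0.65), and the Slc18a2 count was 16.4 to 81.9% of the Pdzd8 count. The part of Pdzd8 reads in the Slc18a2 differences was not tested. Interstitial markers, given above, were lower and cardiomyocyte markers higher in AngII+LY than in AngII mice. The r of Slc18a2 with the interstitial mean was 0.57 over all mice but -0.08 within groups. With the cardiomyocyte mean it was -0.55 (Spearman's rho -0.61), and -0.27 within groups. With the platelet mean it was 0.45, and 0.42 within groups. With the mast cell mean it was -0.16, and -0.68 within groups, and with the sympathetic neuron mean -0.41, and -0.58 within groups. None of these relations over all mice had a permutation adjusted p under 0.05. The part of these cells in the Slc18a2 differences was not tested.

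**Figure D5:**
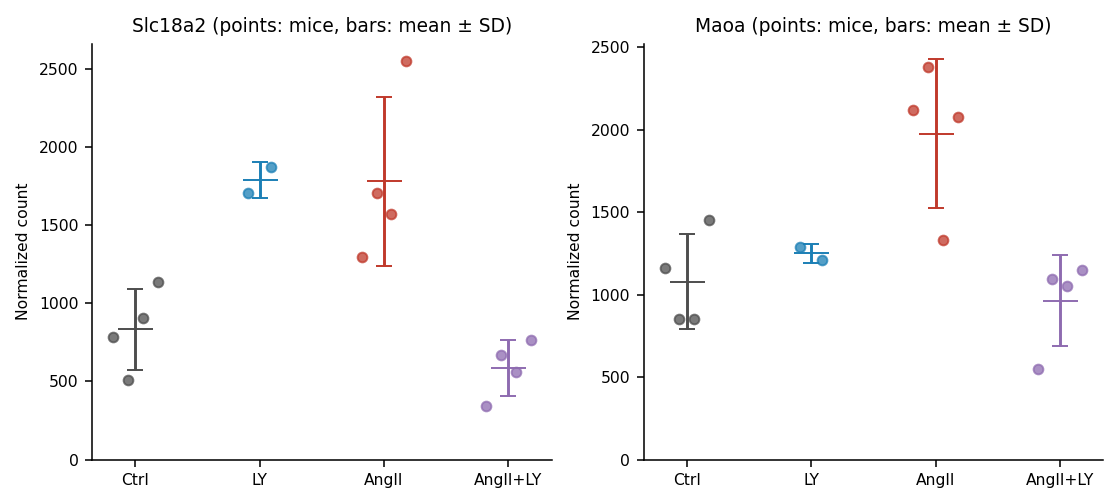
Normalized counts of Slc18a2, left, and Maoa, right, by group on a linear axis from 0, with points for mice and bars for mean ± SD. AngII mice stood above all AngII+LY mice for both genes, and the LY mice lay within the AngII range for Slc18a2 but within the Ctrl range for Maoa.

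MAOA is the oxidase with the higher affinity for 5HT. Maoa (ENSMUSG00000025037, chromosome X from 16485893 to 16554057) had 1160, 851.4, 853.6 and 1450 normalized counts in the Ctrl mice. The AngII mice had 2116, 2379, 1328 and 2075, the AngII+LY mice 552.0, 1093, 1054 and 1147, and the LY mice 1290 and 1210. All AngII mice but AngII 3 lay above every Ctrl mouse. All 4 lay above every AngII+LY mouse, a separation in that direction seen for 5.66% of all genes. The sums of interstitial and of cardiomyocyte markers, given above, also separated these groups. On the log2 scale Maoa differed by 0.87 for AngII against Ctrl (SE 0.27, edgeR adjusted p = 0.0826) and -1.04 for AngII+LY against AngII (SE 0.27, edgeR adjusted p = 0.0662). DESeq2's adjusted p-values were 0.0146 and 0.00637. AngII+LY and Ctrl mice differed by -0.17 (SE 0.26, edgeR adjusted p = 0.87). For LY against Ctrl it differed by 0.21 (SE 0.32, edgeR adjusted p = 1), and the interaction was -1.25 (SE 0.41, edgeR adjusted p = 0.295). Maoa has the lowest GC content of the members, 40.6%, and after a correction of each library for GC content its log2 fold changes were 0.24 (edgeR adjusted p = 0.8) and -0.50 (edgeR adjusted p = 0.466). Those of Slc18a2, at 46.2% GC, were 0.88 (edgeR adjusted p = 0.221) and -1.41 (edgeR adjusted p = 0.092) with the same correction. The r of Maoa with the interstitial mean was 0.50 over all mice (Spearman's rho 0.61) and 0.08 within groups. With the cardiomyocyte mean it was -0.51 (Spearman's rho -0.70), and -0.255 within groups. With the adipocyte mean it was -0.48, and -0.64 within groups. None of these relations over all mice had a permutation adjusted p under 0.05. The part of these cells in the Maoa differences was not tested.

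Maob (ENSMUSG00000040147, chromosome X from 16574807 to 16683686), the neighbouring oxidase, was the most abundant member throughout. The Ctrl mice had 4958, 4368, 2281 and 4115 normalized counts and the AngII mice 3162, 5008, 2737 and 3511. The AngII+LY mice had 3264, 1687, 2223 and 3557, and the LY mice 3978 and 6150. The groups overlapped in every comparison. On the log2 scale the difference was -0.12 for AngII against Ctrl (SE 0.29, edgeR adjusted p = 0.827) and -0.43 for AngII+LY against AngII (SE 0.29, edgeR adjusted p = 0.417). A difference between Maoa and Maob in response was not tested.

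Since Slc18a2 and Maoa stood high in the AngII mice and low in the AngII+LY mice, their promoters are shown. RefSeq's table (GRCm38.p6) had a promoter for 9 of the 10 members, Maob being the exception, from 250 bases before to 50 after the gene's start. Each sequence below was found once in GRCm39. Capitals mark the full cAMP response element TGACGTCA and the GC box GGGCGG or its reverse complement CCGCCC, searched on both strands together with the TATA box TATAAA.
Slc18a2 promoter (chr19:59249060-59249359, plus strand): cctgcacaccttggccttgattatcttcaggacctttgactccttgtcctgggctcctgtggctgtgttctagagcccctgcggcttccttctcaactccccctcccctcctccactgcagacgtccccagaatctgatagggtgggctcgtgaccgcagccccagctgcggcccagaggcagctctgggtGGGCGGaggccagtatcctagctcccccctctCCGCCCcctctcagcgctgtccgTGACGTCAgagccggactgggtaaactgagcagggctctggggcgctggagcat
Maoa promoter (chrX:16485687-16485986, plus strand): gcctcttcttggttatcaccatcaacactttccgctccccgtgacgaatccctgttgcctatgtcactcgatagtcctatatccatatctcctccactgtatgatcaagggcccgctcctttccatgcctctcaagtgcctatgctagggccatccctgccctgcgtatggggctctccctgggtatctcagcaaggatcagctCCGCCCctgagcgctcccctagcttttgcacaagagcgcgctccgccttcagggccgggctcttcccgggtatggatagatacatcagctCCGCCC
The Slc18a2 window held 1 cAMP response element, found in 1.79% of 32851 promoters, and 2 GC boxes. The Maoa window held 2 GC boxes, which 35.7% of promoters have at least once, and no cAMP response element. Neither held the TATA box, present in 13.6%. These are matches of letters and not sites of binding.

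The rest of the pathway was taken from lists by role. Of 6 other synthesis and cofactor genes 5 were tested, and for AngII against Ctrl 1 was higher and 1 lower at an unadjusted p under 0.05. Spr, sepiapterin reductase, which makes the tetrahydrobiopterin cofactor that TPH1 needs, had 4270, 5034, 4951 and 3841 normalized counts in the Ctrl mice, 3689, 2483, 2733 and 1949 in the AngII mice and 4535, 4193, 5269 and 5863 in the AngII+LY mice. It was lower in AngII than in every mouse of both other groups, a separation seen for 7.56% of all genes for AngII below Ctrl and 5.45% for AngII+LY above AngII. The log2 fold change was -0.74 for AngII against Ctrl (SE 0.20, edgeR adjusted p = 0.0619) and 0.87 for AngII+LY against AngII (SE 0.20, edgeR adjusted p = 0.0588). After the GC correction these were -0.42 and 0.63. Qdpr, which regenerates the same cofactor, was the higher one, at 0.51 (SE 0.17, edgeR adjusted p = 0.09).

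Of 10 other metabolism genes 7 were tested. Aldh2, the mitochondrial dehydrogenase that acts on the aldehyde made by the oxidases, was lower in AngII than in Ctrl mice without overlap (7.56% of all genes in that direction), at 13440 ± 2990 against 19610 ± 3838 normalized counts (SD, n = 4 each), which is -0.54 on the log2 scale (edgeR adjusted p = 0.188) and -0.05 with GC corrected. Tgm2, the transglutaminase that can attach 5HT to proteins, was higher in AngII+LY than in AngII mice by 0.61 on the log2 scale (edgeR adjusted p = 0.15) and by 0.18 with GC corrected.

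All 19 genes that couple HTR2B to its effectors were tested. For AngII against Ctrl 5 were higher and 3 lower at an unadjusted p under 0.05, beside 25.2% of all genes in either direction. For AngII+LY against AngII 2 were higher and 6 lower, beside 22.5%. Prkca, protein kinase C alpha, stood at 1833 ± 345 normalized counts with AngII against 930.4 ± 131.9 in Ctrl mice (SD, n = 4 each), without overlap (log2 fold change 0.98, SE 0.20, edgeR adjusted p = 0.0573). Gnaq, the alpha subunit of Gq, had 5564 ± 1565 in AngII, 3148 ± 325 in Ctrl and 3486 ± 946 in AngII+LY mice, and AngII overlapped neither group. The separation of AngII above Ctrl held for 7.46% of all genes and that of AngII+LY below AngII for 5.66%. Its log2 fold change was 0.82 for AngII against Ctrl (edgeR adjusted p = 0.0628) and -0.67 for AngII+LY against AngII (edgeR adjusted p = 0.107). Arrb2, a beta-arrestin, was the reverse of Gnaq for AngII against Ctrl, at -0.71 (edgeR adjusted p = 0.081) and -0.33 with GC corrected. Prkca and Gnaq thus separated AngII from Ctrl mice where Htr2b itself overlapped, although the difference between the genes was not tested.

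The genes with patterns most like the other members, by Pearson's r of log2 values over the 14 mice among the same 13619 genes, are given as a description. Htr2b was most like Atg4d (r = 0.89), and Htr2a like Etnk2 (r = 0.92). Htr1b was most like Kcnmb1 (r = 0.89), the beta subunit of a smooth muscle potassium channel. Ddc was most like Ankrd63 (r = 0.89), Maoa like Casd1 (r = 0.91) and Maob like Ust (r = 0.92), a sulfotransferase of matrix glycosaminoglycans. Slc18a2 was most like Foxj3 (r = 0.91), with 0.78 within groups. For Tph1 and Htr7, at 0 in 6 and 7 mice, the highest r was 0.81 with Ppp1r10 and 0.77 with Ccdc159.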

How the data were processed

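Counts per gene in 14 libraries were used as the authors deposited them. According to the labels and the study's methods, trimmed reads were checked with FastQC (v0.12.1), aligned to GRCm39 with HISAT2 and counted with featureCounts, and the authors tested genes with DESeq2. The table is named as normalized, but it holds whole numbers with unequal totals (20990655 to 73128220), so it was treated as raw counts. Strand setting, mate counting and annotation version are not given in the sources used here. Even counts outnumbered odd ones among counts of 1 to 10 (35471 against 23260). Each library was taken as 1 mouse.

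The 19145 genes whose mean count reached 10 were fitted with edgeR 4.0.16 in R 4.3.3 (TMM, legacy quasi-likelihood, 1 fit of 4 groups). DESeq2 1.42.0, other size factors, no count filter, GC correction (loess, span 0.3), a replicate block and each mouse left out were alternatives. Exon lengths and positions came from GENCODE in GRCm39. Markers were correlated over 100000 permutations, 2-sided. On simulated data with known changes the fit was checked. Every member was named in each comparison, at most 4 genes of each pathway list by smallest p, and the 3 most similar genes per member were found. Members, lists and tests were chosen with earlier results of these data known. The list of other monoamine transporters is not reported here. No correction was made for cell composition. The depth limits genes with few counts, and counting intervals were not computed.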

Additional observations from a re-analysis of the deposited data

Results flagged for a closer look

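In groups of 4 mice, a highest or lowest value standing apart from the others by Dixon's criterion was found in 8 of 30 member and group combinations, where chance gives about 1 in 20 for normally distributed values. Groups mostly at 0, such as Htr7 in AngII, stand apart by this criterion wherever a single mouse is above 0. Htr1b stood out in Ctrl 1 with 596.9 normalized counts and in AngII 4 with 23.2. Htr7 stood out in AngII 2 with 61.3 and in AngII+LY 1 with 170.3, and Tph1 in AngII+LY 1 with 63.2. Slc6a4 stood out in Ctrl 1 with 324.5 and in AngII 4 with 2918. Maoa was low in AngII+LY 1, with 552.0 normalized counts. The difference that LY272015 made to Slc18a2 with AngII was lower than that without AngII by 2.70 on the log2 scale, an interaction of -2.70 (edgeR adjusted p = 0.295).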

How the results depend on the processing

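The members called, 0 in every comparison, became 2 for AngII against Ctrl, 3 for AngII+LY against AngII and 1 for the interaction with DESeq2. With edgeR's newer quasi-likelihood method, added after seeing the data because the planned legacy method proved to be the default, the count became 1 for AngII+LY against AngII. With each mouse left out it ranged from 0 to 1 for both of these comparisons, the call being Slc18a2 without Ctrl 4 or AngII 1 and without AngII 1 respectively. Those fits called 4.17% and 9.02% of all genes for AngII against Ctrl, and 4.40% for AngII+LY against AngII. The replicate block, which uses a number that does not pair the mice (correlations of deviations from -0.13 to 0.09, and not every mouse closest to its own number), left all counts at 0. The log2 fold change turned to -0.10 for Htr2a in AngII against Ctrl under the block, to -0.081 with the GC correction and to -0.64 with both. For Htr2b in LY against Ctrl it turned to -0.25 under the block and -0.42 with the block and the GC correction, and in the interaction to 2.05, 0.056 with the GC correction alone and 2.56 with both. With both, Maoa in LY against Ctrl was -0.006 and the Htr2a interaction 0.51. The cause of these reversals was not tested.

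With 1 mouse left out at a time, signs turned in the following ranges. For AngII against Ctrl they were -0.33 to 0.007 for Maob, -1.63 to 0.21 for Htr2b, -0.14 to 0.75 for Htr2a and -5.66 to 2.62 for Htr7. For AngII+LY against AngII they were -1.46 to 0.76 for Slc6a4 and -1.78 to 8.47 for Htr7. For AngII+LY against Ctrl they were -4.28 to 0.92 for Htr1b, -0.26 to 0.025 for Maoa and -0.50 to 4.14 for Htr7. For LY against Ctrl they were -5.68 to 0.62 for Htr7, -0.58 to 0.094 for Htr2a, -2.29 to 2.01 for Htr2b, -0.12 to 0.93 for Ddc and -7.77 to 0.57 for Tph1. For the interaction they were -1.11 to 3.19 for Htr2b and -1.07 to 9.19 for Htr7. Extremes for Htr7, Htr1b and Tph1 beyond 4 in size came where at most 1 remaining mouse of a group had counts, depend on the prior count and are no fold. A fit of only the groups compared was not possible for the interaction. Without 1 LY mouse the other was assumed to vary like the remaining groups. DESeq2 gave no p for Slc6a4 and Htr7. Slc18a2 kept its direction in every setting run for all 5 tests.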
